A study of Mus musculus with 6 samples.

Results

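The genes described here encode collagens, other extracellular matrix proteins and contractile proteins of mesenchymal cells, with a few receptors and transcription factors of meningeal fibroblasts and pericytes. The rule for the 40 listed genes goes by what they encode, but the list was drawn up with earlier results of these data known, so its counts are a description. A gene was taken as measured where the span of a row of the table covered at least 0.5 of the union of that row and the annotated gene, and 33 of the 40 genes had such a row, among 17138 protein-coding genes that did. RNA came from primary cortical cultures of Balb/c mouse embryos (E14.5), kept in medium with 10% serum and collected after 4 days in vitro by the labels. Before plating, the dissociated cells were nucleofected with a plasmid, on a pSuperneoGFP backbone, for a short hairpin RNA (shRNA). The Neurod2 knockdown group held 4 libraries, 2 each with Neurod2 shRNA-1 and Neurod2 shRNA-2, and the non-silencing group held 2 libraries with a control shRNA. Every culture passed through the same dissociation, nucleofection, vector backbone and serum, and the pool of cells held whatever the dissected cortex held, including cells that took up no plasmid. The deposited table holds 1 value per group and locus in FPKM, a fragment count scaled to the length of the transcript and the size of the library, and both knockdown shRNAs are pooled in it. With 1 value per group there is no spread between libraries, no SD and no test in what follows, and what either shRNA did by itself stays hidden. Nothing in the labels says that the libraries of a group were made from different cultures.

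Collagens are secreted as trimers of chains. The fibrillar types I, III and V give connective tissue its tensile strength, type IV forms the sheet of the basement membrane around vessels and under the meninges, and type VI forms beaded filaments. In the embryonic cortex most of these genes are known from the meninges, from pericytes and from endothelial cells rather than from neurons, while fibronectin, SPARC and tenascin-C are also made by glia. Smooth muscle actin and its partners mark cells that contract, and thrombospondin, periostin, CTGF and CYR61 are matricellular proteins, which signal from the matrix without building it.

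The promoters of 3 members that were among those with the widest differences between the groups are shown so that the region before their starts can be read beside the values. RefSeq windows on GRCm38.p6 were found for 25 of the 40 genes, and each window here is the 250 bases before the annotated start. They lie at chr1:45311288-45311537 on the + strand for Col3a1, at chr3:54360857-54361106 on the + strand for Postn and at chrX:73483351-73483600 on the + strand for Bgn. Capitals mark matches, on either strand, to GGAATG (bound by TEAD factors), CAGATG or CAGCTG (E-box forms bound by bHLH factors, the family of NEUROD2), TATAAA and the CArG box of SRF.
Col3a1: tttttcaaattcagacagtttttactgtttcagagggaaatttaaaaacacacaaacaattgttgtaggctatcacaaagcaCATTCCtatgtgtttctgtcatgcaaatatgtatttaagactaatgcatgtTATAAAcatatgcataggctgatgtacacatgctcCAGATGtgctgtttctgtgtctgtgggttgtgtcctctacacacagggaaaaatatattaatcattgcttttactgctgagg
Postn: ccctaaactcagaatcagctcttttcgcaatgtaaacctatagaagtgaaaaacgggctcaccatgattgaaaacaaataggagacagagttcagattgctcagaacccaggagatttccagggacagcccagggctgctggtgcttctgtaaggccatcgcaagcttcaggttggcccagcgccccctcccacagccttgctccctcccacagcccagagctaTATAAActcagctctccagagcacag
Bgn: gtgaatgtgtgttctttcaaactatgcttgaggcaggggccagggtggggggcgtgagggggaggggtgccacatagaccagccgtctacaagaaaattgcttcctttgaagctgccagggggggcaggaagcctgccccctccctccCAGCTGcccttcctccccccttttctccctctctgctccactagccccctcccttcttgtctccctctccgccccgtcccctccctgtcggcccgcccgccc
The Col3a1 window held GGAATG on the reverse strand at -168 to -163, TATAAA at -117 to -112 and CAGATG at -82 to -77, counted back from the start. The Postn window held TATAAA at -26 to -21 and the Bgn window CAGCTG at -102 to -97, and the CArG box was in none of these windows. The Acta2 window overlaps an annotated exon and is not shown.

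These letters were not rare in other windows. Over all 32851 RefSeq windows of the same length, TATAAA was found in 12.4%, GGAATG in 12.6%, CAGATG in 14.4%, CAGCTG in 13.0% and the CArG box in 1.47%. Of the 25 windows of the listed genes, 6 held TATAAA, 5 held GGAATG, 2 held CAGATG, 5 held CAGCTG and 1, that of Myl9, held the CArG box. The general E-box CANNTG, which includes CAGATG and CAGCTG, was in 11 of the 25 windows and in 66.2% of all windows. CAGAC, the short SMAD motif, was in 11 of the 25 and in 42.2% of all windows, and the longer SMAD motif GTCTAGAC was in 0.0 of the 25 and in 0.167% of all windows. A match is a description of letters and not of a bound site.

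Neurod2, the targeted gene, was at 60.3 FPKM in the knockdown and 105 FPKM in non-silencing cultures, 0.58 times as much with 1 FPKM added to each. Of 32357 rows in the table, both group values were known for 32249, after 4925 rows with cells changed by a spreadsheet had been restored. Of the 33 measured genes, 28 had intact cells and 5 (Fn1, Fbn1, Thbs2, Sparc and Dcn) had restored ones. Many of these genes were scarce in the cultures, with 15 of the 33 under 1 FPKM in both groups, beside a median of 4.32 FPKM over all coding genes. Read depth is not given. As a guide to what the table resolves, the product of FPKM and transcript length at loci with a single annotated transcript had a 5th percentile of 0.0182 FPKM kb in the knockdown (634 loci above 0) and 0.0355 FPKM kb in non-silencing cultures (470 loci above 0). These are called low steps below, and how many reads such a step stands for is unknown. The step differs in size between the groups, so counts of steps are not to be compared between them.

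A gene was called higher or lower past 1.5-fold, after adding 1 FPKM to each value. This measure cannot call a gene at a small fraction of 1 FPKM in both groups, whatever its ratio. By this measure 5 of the 33 genes were higher in the knockdown (Col1a1, Col3a1, Thbs1, Bgn and Acta2), where 0.654% of all coding genes were. None of the 33 was lower, where 0.776% of all coding genes were. Over the 33 genes the log2 fold change had a median of 0.08, with 24 above 0 and 9 below, and the median over all coding genes was 0.00 with 5th and 95th percentiles of -0.22 and 0.18. In bulk RNA, more cells of a type and more RNA per cell cannot be told apart, and this holds for each difference that follows.

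**Figure D1:**
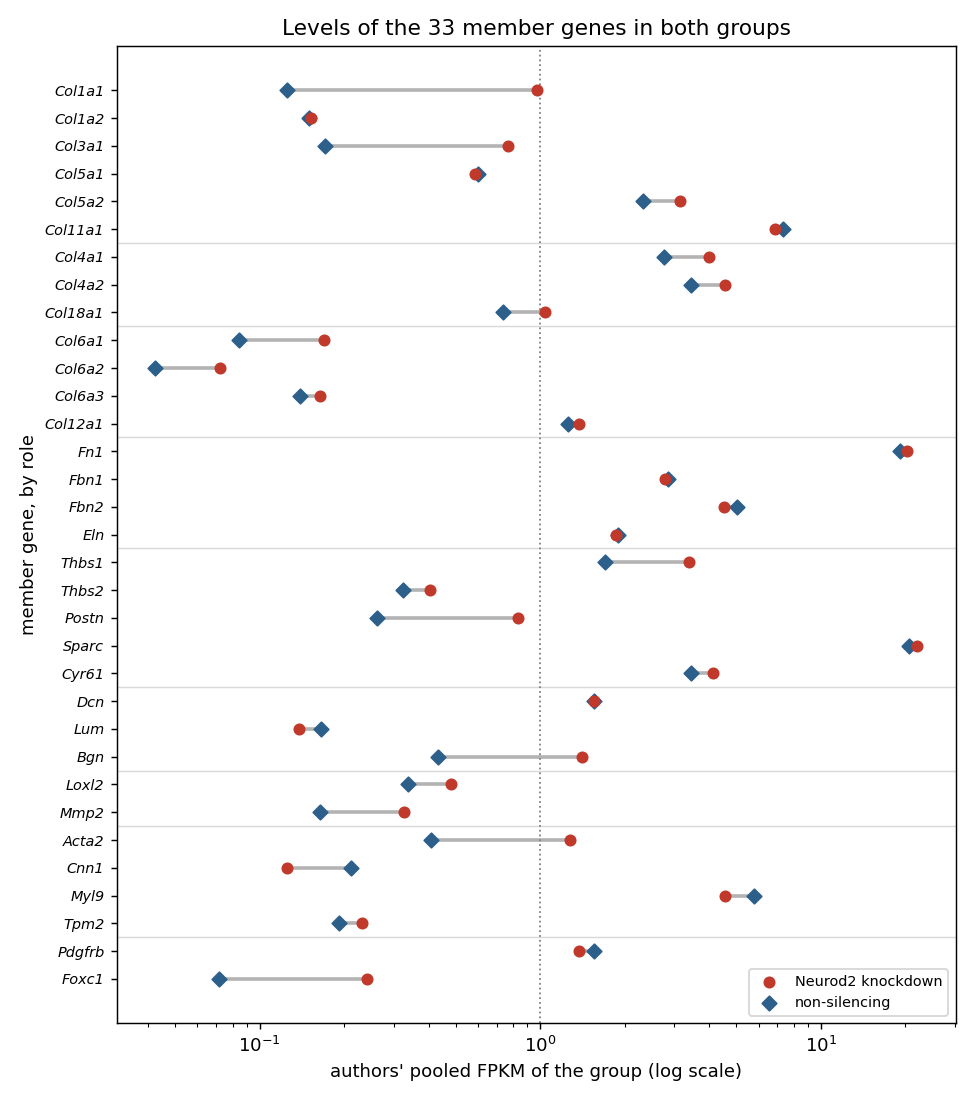
Pooled FPKM of each of the 33 genes (horizontal, log scale) in the Neurod2 knockdown (red circles) and in non-silencing cultures (blue diamonds), ordered by role with grey lines between roles; the dotted line is at 1 FPKM and there are no error bars because the table holds 1 value per group. The widest gaps are those of Col1a1 (0.975 against 0.125 FPKM) and Col3a1 (0.765 against 0.171 FPKM), while Fn1 and Sparc, the most abundant genes, lie close together.

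By the plain ratio, the widest differences of the 33 genes were those of Col1a1 and Col3a1. Col1a1 (chromosome 11, 94936224 to 94953042 on GRCm38), which encodes the main chain of type I collagen, was at 0.975 FPKM in the knockdown and 0.125 FPKM in non-silencing cultures, a plain ratio of 7.79 and a log2 fold change of 0.81 with 1 FPKM added. These values are 318 low steps in the knockdown and 20.9 low steps in non-silencing cultures. Col1a2 (chromosome 6, 4504814 to 4541544), the partner chain of the same trimer, was at 0.152 FPKM in the knockdown and 0.150 FPKM in non-silencing cultures, with a log2 fold change of 0.00. The ratio of Col1a1 to Col1a2 in FPKM was therefore 6.43 in the knockdown and 0.834 in non-silencing cultures. The genes for these chains, which assemble in a fixed ratio, were thus unlike each other in these values. The Col1a2 row, however, was not marked as tested by the authors. Its values were 44.7 low steps in the knockdown and 22.6 low steps in non-silencing cultures. Col3a1 (chromosome 1, 45311538 to 45349706), the only chain of type III collagen, was at 0.765 FPKM in the knockdown and 0.171 FPKM in non-silencing cultures, a plain ratio of 4.47 and a log2 fold change of 0.59. That value is just past the call, and 234 and 26.8 low steps lie under it in the knockdown and in non-silencing cultures. An annotated microRNA gene, Gm47302, lies within the Col3a1 span, and its part in the value was not tested.

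The type V and XI chains, which nucleate collagen fibrils, showed no such difference. Col5a1 was at 0.584 FPKM in the knockdown and 0.600 FPKM in non-silencing cultures. Col5a2, which lies 24.6 kb from Col3a1 on the other strand, was at 3.14 FPKM in the knockdown and 2.33 FPKM in non-silencing cultures, a log2 fold change of 0.31 that did not reach the call. Col11a1 had the highest level of the fibrillar chains, with 6.85 FPKM in the knockdown and 7.35 FPKM in non-silencing cultures. A second row of Col11a1 held 0.731 FPKM in the knockdown and 0.832 FPKM in non-silencing cultures. Within the fibrillar group, then, 2 of 6 genes were higher and the others lay between -0.09 and 0.31.

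The basement membrane collagens were each above their non-silencing level without reaching the call. Col4a1 was at 4.01 FPKM in the knockdown and 2.77 FPKM in non-silencing cultures (log2 fold change 0.41). Col4a2 was at 4.56 FPKM in the knockdown and 3.44 FPKM in non-silencing cultures (0.32). These chains form the common type IV trimer, and their genes lie head to head on chromosome 8. Unlike the type I chains they were close to each other, with a Col4a1 to Col4a2 ratio of 0.879 in the knockdown and 0.806 in non-silencing cultures. Col18a1, a basement membrane collagen from which endostatin is cut, was at 1.04 FPKM in the knockdown and 0.736 FPKM in non-silencing cultures (0.23).

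The type VI chains were near the bottom of the range. Col6a1 was at 0.169 FPKM in the knockdown and 0.0845 FPKM in non-silencing cultures. Col6a2 was at 0.0724 FPKM in the knockdown and 0.0424 FPKM in non-silencing cultures. Col6a3 was at 0.164 FPKM in the knockdown and 0.139 FPKM in non-silencing cultures. The plain ratio was 1.99 for Col6a1 and 1.71 for Col6a2, but the non-silencing values were only 9.76 and 5.56 low steps, and the log2 fold changes with 1 FPKM added were 0.11 and 0.04. Col12a1, a collagen that decorates fibrils, was at 1.37 FPKM in the knockdown and 1.26 FPKM in non-silencing cultures.

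Fibronectin and the elastic fibre genes hardly differed. Fn1, which encodes the fibronectin that cells grip through integrins, was at 20.3 FPKM in the knockdown and 19.2 FPKM in non-silencing cultures, and its second row held 0.889 FPKM in the knockdown and 0.476 FPKM in non-silencing cultures. Fbn1, a fibrillin of the microfibrils, was at 2.79 FPKM in the knockdown and 2.85 FPKM in non-silencing cultures. Fbn2, the fibrillin most used in the embryo, was at 4.51 FPKM in the knockdown and 5.01 FPKM in non-silencing cultures. Elastin, encoded by Eln, was at 1.86 FPKM in the knockdown and 1.90 FPKM in non-silencing cultures. The log2 fold changes of these leading rows ran from -0.13 to 0.08.

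The matricellular genes were split by gene. Thbs1 (chromosome 2, 118111876 to 118127133), which encodes thrombospondin-1, an activator of latent TGF-beta and an inhibitor of vessel growth, was at 3.38 FPKM in the knockdown and 1.70 FPKM in non-silencing cultures. Its plain ratio was 1.99 and its log2 fold change 0.70, and it was the only higher gene of the set with a mean above 1 FPKM. Postn (chromosome 3, 54361109 to 54391037), which encodes periostin, was at 0.834 FPKM in the knockdown and 0.262 FPKM in non-silencing cultures, a plain ratio of 3.18. With 1 FPKM added its log2 fold change was 0.54, just short of the call. Thbs2, the related thrombospondin, was at 0.405 FPKM in the knockdown and 0.325 FPKM in non-silencing cultures. Cyr61, an integrin ligand and a target of YAP, was at 4.12 FPKM in the knockdown and 3.44 FPKM in non-silencing cultures (0.20). Sparc, the most abundant gene of the set, was at 22.1 FPKM in the knockdown and 20.7 FPKM in non-silencing cultures (0.09). All 5 measured matricellular genes thus lay above their non-silencing level, and 1 of them passed the call.

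Of the small leucine-rich proteoglycans, which bind collagen fibrils and set their thickness, 1 differed. Bgn (chromosome X, 73483602 to 73495933), which encodes biglycan, was at 1.41 FPKM in the knockdown and 0.431 FPKM in non-silencing cultures, a plain ratio of 3.26 and a log2 fold change of 0.75. Decorin, encoded by Dcn, was level at 1.56 FPKM in the knockdown and 1.55 FPKM in non-silencing cultures. Lumican, encoded by Lum 47.0 kb from Dcn on chromosome 10, was at 0.138 FPKM in the knockdown and 0.165 FPKM in non-silencing cultures. Among the enzymes, Loxl2, a lysyl oxidase that crosslinks collagen, was at 0.482 FPKM in the knockdown and 0.338 FPKM in non-silencing cultures. Mmp2, a gelatinase that cuts type IV collagen, was at 0.327 FPKM in the knockdown and 0.164 FPKM in non-silencing cultures, a plain ratio of 2.00 with a log2 fold change of 0.19. A microRNA gene, Mir6950, is annotated within Loxl2.

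The contractile genes did not share a direction. Acta2 (chromosome 19, 34241090 to 34255590), which encodes smooth muscle actin, was at 1.28 FPKM in the knockdown and 0.409 FPKM in non-silencing cultures, a plain ratio of 3.12 and a log2 fold change of 0.69. Myl9, a myosin light chain, was at 4.56 FPKM in the knockdown and 5.79 FPKM in non-silencing cultures, and its log2 fold change of -0.29 was the lowest of the 33. Cnn1, the smooth muscle calponin, was at 0.125 FPKM in the knockdown and 0.211 FPKM in non-silencing cultures. Its plain ratio of 0.59 was the only one past 1.5-fold downward, and its values were 16.4 low steps in the knockdown and 14.2 in non-silencing cultures. Tpm2, a tropomyosin, was at 0.231 FPKM in the knockdown and 0.192 FPKM in non-silencing cultures. Smooth muscle actin was thus higher where calponin and myosin light chain were not.

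The receptor and the transcription factor that mark mural cells and meningeal fibroblasts were as follows. Pdgfrb, the PDGF receptor of pericytes, was at 1.38 FPKM in the knockdown and 1.56 FPKM in non-silencing cultures (log2 fold change -0.11). Foxc1, a forkhead factor needed for the meninges, was at 0.242 FPKM in the knockdown and 0.0716 FPKM in non-silencing cultures, a plain ratio of 3.39 on 77.9 and 11.8 low steps, and its log2 fold change was 0.21. The row of Foxc1 covered 0.68 of its union with the gene, the lowest share among the 33 genes.

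For 7 of the 40 genes no row reached an overlap of 0.5, and they enter no count. The nearest rows were those of Foxd1, at 0.49, with 0.0605 FPKM in the knockdown and listed at 0 in non-silencing cultures, and of Tnc, at 0.46. The Tnc rows held 58.7 and 1.39 FPKM in the knockdown, against 57.4 and 0.953 FPKM in non-silencing cultures. The row at Ctgf, at 0.35, held 2.25 FPKM in the knockdown and 1.65 FPKM in non-silencing cultures. Ogn, Timp1 and Tagln lie in merged spans with 4 or more annotated coding genes or pseudogenes each, so no value could be given to them. Lox lies in a longer span, at an overlap of 0.23, with no other coding gene wholly inside. Of the rows at Lox, 1 was listed at 0 in both groups. The other held 0.127 FPKM in the knockdown and 0.0561 FPKM in non-silencing cultures.

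The differences were concentrated among the scarce genes of the set. Between 0.1 and 1 FPKM in the mean, 4 of 17 members were higher (Col1a1, Col3a1, Bgn and Acta2), where 0.412% of coding genes in that range were, and the sum over the 17 was 9.31 FPKM in the knockdown and 4.57 FPKM in non-silencing cultures. Between 1 and 10 FPKM, 1 of 13 members was higher (Thbs1), where 0.494% of coding genes were, and the sum was 44.1 FPKM in the knockdown and 41.0 FPKM in non-silencing cultures. The remaining members were Fn1 and Sparc, above 10 FPKM, and Col6a2, under 0.1 FPKM.

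**Figure D2:**
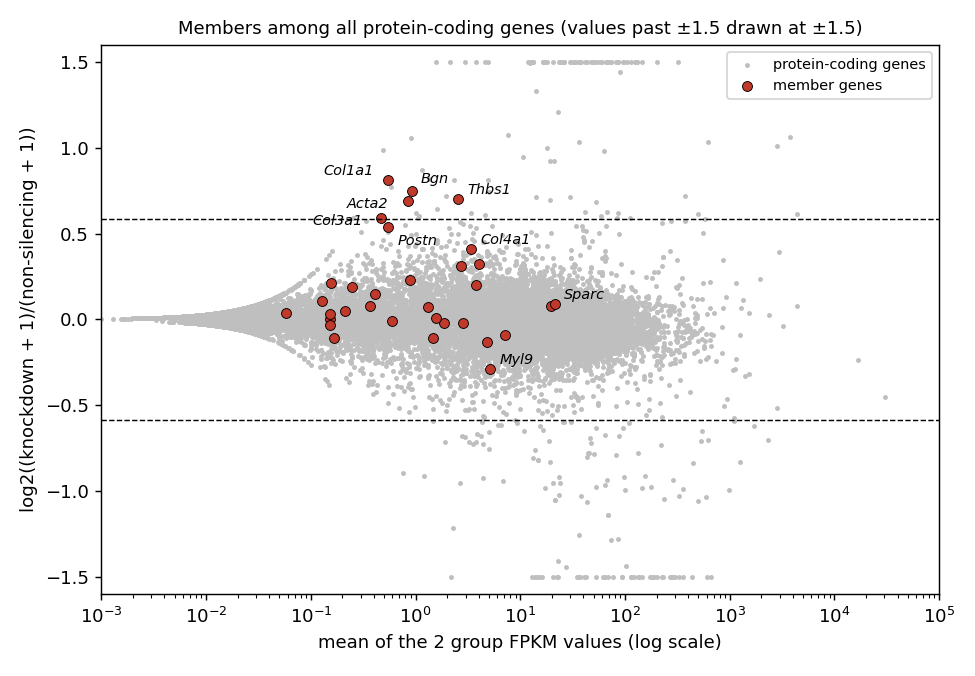
Log2 fold change with 1 FPKM added (vertical, Neurod2 knockdown over non-silencing) against the mean of both group values (horizontal, log scale) for protein-coding genes above 0 (grey) and the 33 members (red); dashed lines mark 1.5-fold. Col1a1, Bgn, Thbs1, Acta2 and Col3a1 lie past the upper line and no member lies past the lower one.

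Adding 1 FPKM pulls the fold change of scarce genes towards 0, so the ratio without it is set beside it. On the plain ratio 10 of the 33 genes were past 1.5-fold upward (the 5 above with Postn, Foxc1, Mmp2, Col6a1 and Col6a2), where 6.24% of coding genes above 0 in both groups were. Downward, 1 gene (Cnn1) passed, where 6.31% were. The rows of Foxc1, Mmp2, Col6a1, Col6a2 and Cnn1 were among 12 of the 33 that the authors did not mark as tested. Plain ratios of scarce genes scatter widely: between 0.1 and 1 FPKM, 14.6% of coding genes passed upward and 13.7% downward, and of the 17 members in that range 8 passed upward and 1 downward. The median plain log2 ratio was 0.51 for these 17 members and 0.26 for all 33.

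**Figure D3:**
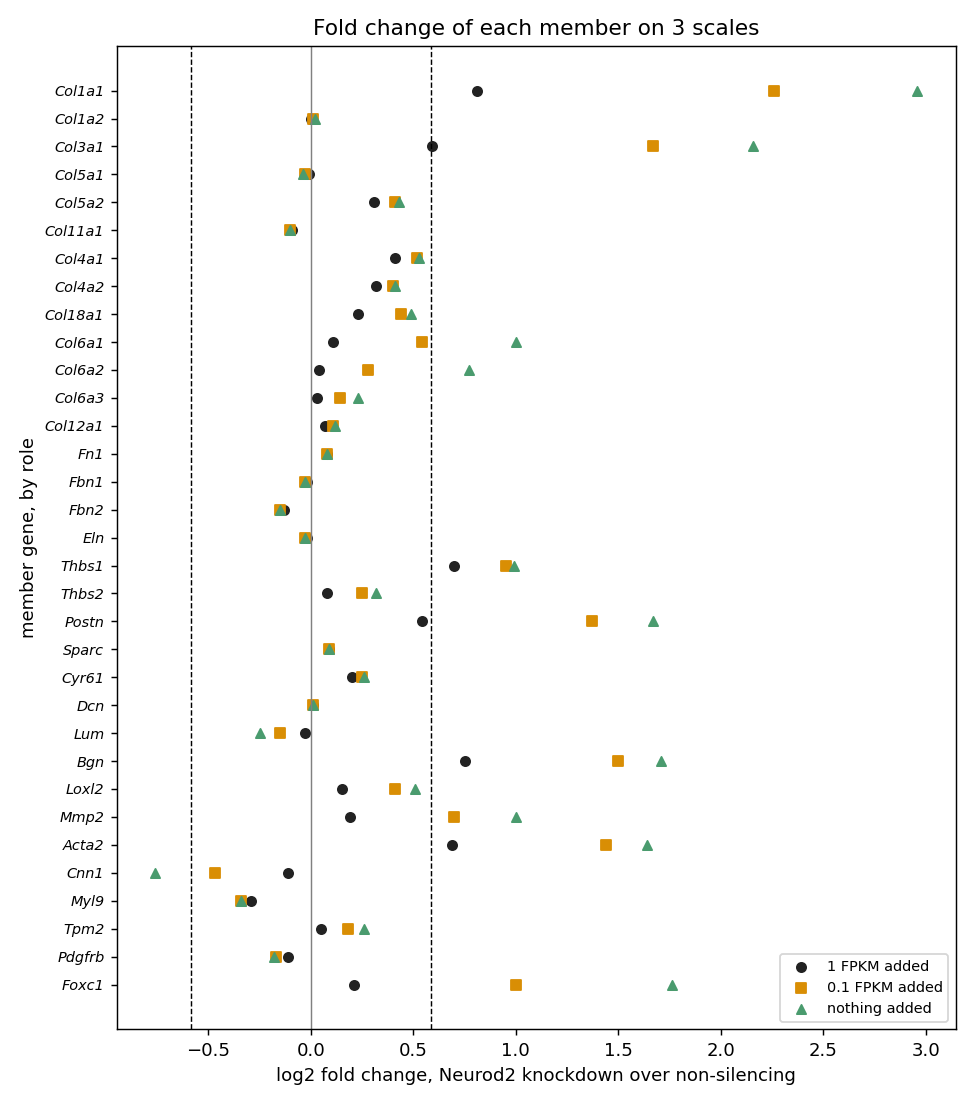
Log2 fold change of each member (horizontal, Neurod2 knockdown over non-silencing) with 1 FPKM added (black circles), 0.1 FPKM added (orange squares) and nothing added (green triangles), ordered by role; dashed lines mark 1.5-fold. The scales part for scarce genes such as Col1a1 (0.81, 2.26 and 2.96) and coincide for abundant ones such as Fn1.

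Genes that process collagen and genes of the wider matrix were counted in the same way. With 0.654% of all coding genes higher and 0.776% lower, a count of 0 in a list of this size is near the background. Of 20 enzymes of collagen folding and secretion 19 were measured, none passed the call in either direction, and their median log2 fold change was -0.06. P4hb, a subunit of prolyl hydroxylase, was at 256 FPKM in the knockdown and 295 FPKM in non-silencing cultures, and Sec23a, a coat protein of secretory vesicles, was at 72.1 FPKM in the knockdown and 73.6 FPKM in non-silencing cultures. Of 27 other collagens, all measured, none passed (median 0.01), and on the plain ratio 3 passed 1.5-fold upward and 2 downward. The closest to the call was Col8a1, a short-chain collagen of vessel walls, at 0.527 FPKM in the knockdown and 0.0736 FPKM in non-silencing cultures, a plain ratio of 7.15 and a log2 fold change of 0.51. Col9a3, a fibril-associated chain, was at 5.27 FPKM in the knockdown and 5.79 FPKM in non-silencing cultures. The row with the highest level at Col4a3 held 135 FPKM in the knockdown and 136 FPKM in non-silencing cultures, but 3 rows share that span, which also holds the gene Mff, so it may not be the level of Col4a3.

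The laminins and other basement membrane proteins showed no call among 17 genes, with a median of 0.03. Sparcl1, a relative of SPARC, was at 71.1 FPKM in the knockdown and 64.7 FPKM in non-silencing cultures, and agrin, encoded by Agrn, was at 64.2 FPKM in the knockdown and 62.2 FPKM in non-silencing cultures. Of 27 elastic fibre and other matrix genes 23 were measured, with no call and a median of 0.00. The row with the highest level at Loxl3, a lysyl oxidase, held 27.0 FPKM in the knockdown and 22.1 FPKM in non-silencing cultures. The gene has 4 rows, and the next held 17.5 FPKM in the knockdown and 20.3 FPKM in non-silencing cultures. A direction for the whole of Loxl3 cannot be read from these rows. Ltbp3, which binds latent TGF-beta, was at 17.7 FPKM in both groups. Of 20 proteases and inhibitors 18 were measured, with no call and a median of -0.02. Timp2, an inhibitor of metalloproteases, was at 59.0 FPKM in the knockdown and 55.3 FPKM in non-silencing cultures. Mmp24, a membrane-bound metalloprotease, was at 38.5 FPKM in the knockdown and 37.7 FPKM in non-silencing cultures. The second row of Mmp24 held 8.93 FPKM in the knockdown and 9.45 FPKM in non-silencing cultures.

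Among 21 measured matrix receptors of 22, none was higher and 1 was lower, with a median of 0.03. The lower one was Ddr2, a receptor tyrosine kinase for fibrillar collagen, at 3.23 FPKM in the knockdown and 5.37 FPKM in non-silencing cultures, and its second row held 0.954 FPKM in the knockdown and 1.24 FPKM in non-silencing cultures. Itgb1, the integrin subunit shared by most collagen and laminin receptors, was at 45.2 FPKM in the knockdown and 43.6 FPKM in non-silencing cultures. Dag1, which encodes dystroglycan, was at 26.4 FPKM in the knockdown and 28.2 FPKM in non-silencing cultures.

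Regulators of these genes were read in a pair of lists. Of 18 TGF-beta genes 16 were measured, 1 was higher and none lower, with a median of 0.04. Smad4, the common SMAD, was at 50.2 FPKM in the knockdown and 51.9 FPKM in non-silencing cultures, and the receptor gene Tgfbr1 was at 34.0 FPKM in the knockdown and 31.0 FPKM in non-silencing cultures. Of 27 YAP-TEAD and SRF genes 24 were measured, none was higher and 1 row was counted as lower, with a median of 0.01. That row lies at Srf and was listed at 0 in the knockdown against 580 FPKM in non-silencing cultures, while the other row at the same position held 12.8 FPKM in the knockdown and 14.8 FPKM in non-silencing cultures. The level of the whole gene cannot be read from such a pair. Cnn3, a calponin, was at 72.0 FPKM in the knockdown and 76.8 FPKM in non-silencing cultures.

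Markers of the cell types that could carry these genes were read from lists outside the 40. Of 14 smooth muscle and pericyte markers 13 were measured and none passed, and their levels summed to 11.6 FPKM in the knockdown and 11.1 FPKM in non-silencing cultures. Rgs5 was at 4.92 FPKM in the knockdown and 4.12 FPKM in non-silencing cultures, and Notch3 at 3.24 FPKM in the knockdown and 3.38 FPKM in non-silencing cultures. In this list 9 markers lay above their non-silencing level and 4 below, with a median log2 fold change of 0.02. Markers other than Rgs5, Notch3, Cspg4 and Smtn were too scarce to pass the call, whatever their ratio. On the plain ratio, 10 were above 0 in both groups. Of these, 3 passed 1.5-fold upward (Myh11, Abcc9 and Anpep, at most 0.0549 FPKM in the knockdown) and 0 downward. Actg2, Vtn and Kcnj8 were at 0.227, 0.121 and 0.0151 FPKM in the knockdown and listed at 0 in non-silencing cultures. Among those below, Cspg4 was at 1.5 FPKM in the knockdown and 1.97 FPKM in non-silencing cultures, and Smtn at 1.25 FPKM in the knockdown and 1.40 FPKM in non-silencing cultures. Of 17 meningeal fibroblast markers 15 were measured and none passed, with a median of 0.05 and a sum of 125 FPKM in the knockdown and 117 FPKM in non-silencing cultures. Most of that sum was Igfbp2, at 91.2 FPKM in the knockdown and 87.1 FPKM in non-silencing cultures, and Lgals1, at 12.7 FPKM in the knockdown and 9.36 FPKM in non-silencing cultures. In this list 11 markers lay above their non-silencing level and 4 below, and on the plain ratio 2 passed 1.5-fold upward and 2 downward among those above 0 in both groups. The scarce markers of this list could not pass the call, whatever their ratio. Of these, Tbx18 was at 0.110 FPKM in the knockdown and 0.0162 FPKM in non-silencing cultures. Twist1 was at 0.101 FPKM in the knockdown and listed at 0 in non-silencing cultures. In the other direction, Foxc2 was at 0.0117 FPKM in the knockdown and 0.0581 FPKM in non-silencing cultures, Slc6a13 at 0.0161 FPKM in the knockdown and 0.0644 FPKM in non-silencing cultures, and the more abundant Pdgfra at 8.17 FPKM in the knockdown and 10.3 FPKM in non-silencing cultures. Their part in the higher collagen values was not tested.

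Endothelial markers summed to 10.6 FPKM in the knockdown and 10.0 FPKM in non-silencing cultures over 13 genes, none past the call, of which Mfsd2a alone held 9.74 FPKM in the knockdown and 9.32 FPKM in non-silencing cultures. Esam, the next in level, was at 0.373 FPKM in the knockdown and 0.422 FPKM in non-silencing cultures, and Ly6c1 was listed at 0 in both. Endothelial markers other than Mfsd2a and Esam were too scarce to pass the call, whatever their ratio. In this list 10 markers lay above their non-silencing level and 2 below. On the plain ratio, 9 were above 0 in both groups. Of these, 3 passed 1.5-fold upward (Pecam1, Kdr and Flt1) and 1 downward (Tek). Of 10 microglia markers 8 were measured, with a sum of 0.416 FPKM in the knockdown and 0.141 FPKM in non-silencing cultures. All 8 were too scarce to pass the call with 1 FPKM added, whatever their ratio. In this list 6 lay above their non-silencing level and 0 below. On the plain ratio, the 3 markers above 0 in both groups each passed 1.5-fold upward. Aif1 was at 0.183 FPKM in the knockdown and 0.0847 FPKM in non-silencing cultures, Csf1r was at 0.139 FPKM in the knockdown and 0.0499 FPKM in non-silencing cultures, and C1qb and Tyrobp were listed at 0 in both. Of 12 astrocyte and radial glia markers 9 were measured, and 1 was lower, Gfap, at 35.1 FPKM in the knockdown and 57.4 FPKM in non-silencing cultures. Fabp7 was at 1227 FPKM in the knockdown and 1057 FPKM in non-silencing cultures, and Vim at 140 FPKM in the knockdown and 142 FPKM in non-silencing cultures. Of 12 cortical neuron markers 11 were measured, and they were abundant, with Tubb3 at 879 FPKM in the knockdown and 839 FPKM in non-silencing cultures and Map2 at 346 FPKM in the knockdown and 302 FPKM in non-silencing cultures. None of the neuron markers passed the call, and their median was 0.08, as high as that of the 33 matrix and contractile genes. This holds only with 1 FPKM added, which pulls the scarce matrix genes towards 0. On the plain log2 ratio the median was 0.08 for the neuron markers and 0.26 for the 33 genes.

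**Figure D4:**
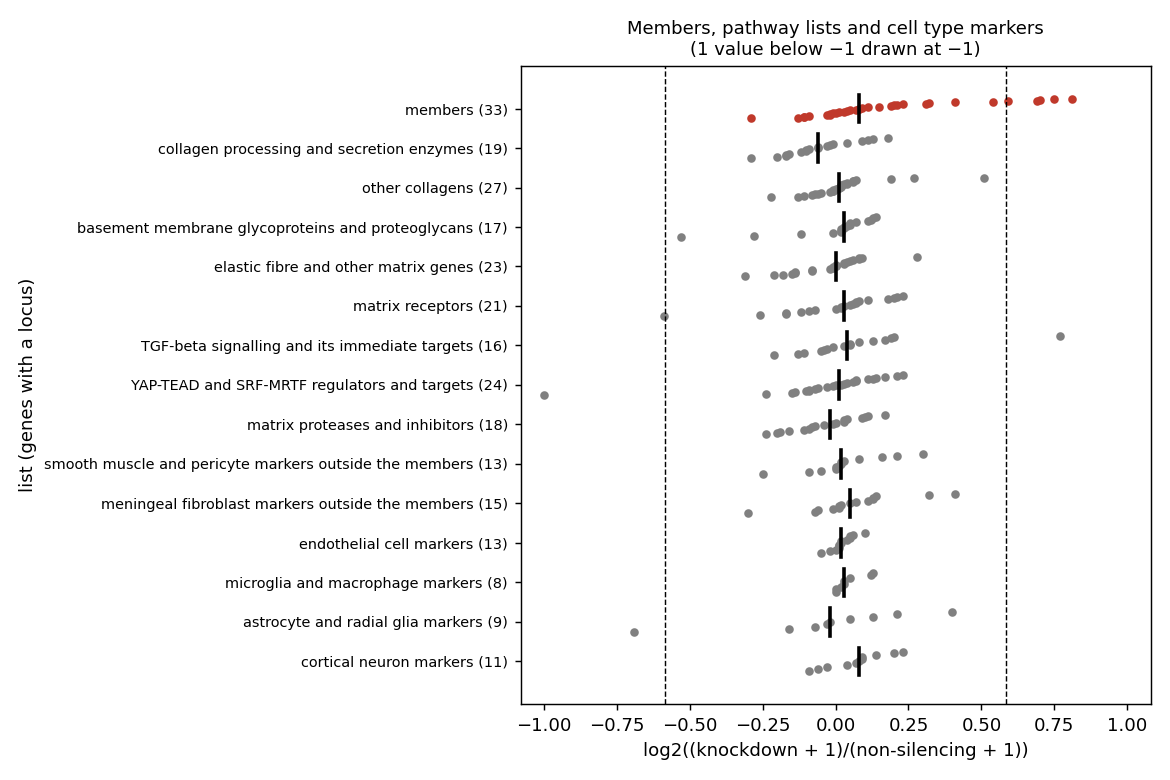
Log2 fold change with 1 FPKM added (horizontal, Neurod2 knockdown over non-silencing) of each measured gene, 1 point a gene, for the 33 members (red), the pathway lists and the cell type marker lists (grey), with the number of genes measured in brackets; black bars are medians and dashed lines mark 1.5-fold. The members reach 0.81 and the point at -1 in the YAP-TEAD and SRF list is the Srf row that was listed at 0 in the knockdown, whose value of -9.18 is drawn at the edge of the axis.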

How the data were processed

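The RNA-seq came from 6 libraries of primary cortical cultures, 4 with Neurod2 knockdown and 2 with a non-silencing shRNA; the labels give 4 days in vitro and the study's methods 5. Per the labels and the study's methods, single-end reads of 50 bp were mapped by the authors to mm10 with TopHat, followed by Cufflinks and Cuffdiff, each in a version not given in the sources used here. Per group and locus, the authors deposited 1 pooled FPKM value, normalized for transcript length and library size. The table's log2 fold change, test statistic, p-value and q-value columns are the authors' own comparison and are not reported here.

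A spreadsheet had stored 8152 cells as times of day, in 5033 of 32357 loci. The possible numbers were listed for each, and a pair was kept where it alone gave the deposited log2 fold change within 2e-05, the only use of that column. This restored 4925 loci, left 19 with several readings and 89 with no check. Tested on simulated data with 3419 altered loci, 99.5% were restored rightly, 0% wrongly, and 0.497% stayed without a single reading. The simulated cells were altered by the same spreadsheet rule that the restoring assumes, so this does not test the rule itself. No locus carries a gene name. A row was tied to a gene of GENCODE M21 (GRCm38, the assembly of mm10) at an overlap of at least 0.5 of the union of spans, and the row with the highest mean stood for a gene with several.

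Fold changes are log2((knockdown + 1)/(non-silencing + 1)), and a gene was called past 1.5-fold. FPKM times transcript length gave no whole multiples, so read counts could not be recovered and depth is unknown. No test was made. Every member is named; of each other list, genes past 1.5-fold with a mean of at least 1 FPKM (at most 4) and the highest 2 by mean. Col8a1 and the markers beyond this rule are named after their values were seen, and 1 gene of the TGF-beta list is not reported here. The members and lists were chosen with earlier results of these data known. Alternatives were a pseudocount of 0.1 FPKM, none, a minimum mean of 1 FPKM, tested or intact rows only, an overlap of 0.8, centring, and a fold of 2. Python 3.11.15 with pandas was used.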

Additional observations from a re-analysis of the deposited data

How the results depend on the processing

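With 0.1 FPKM added in place of 1, 8 members were past 1.5-fold upward and the median log2 fold change was 0.25; the 3 added were Postn (1.37), Mmp2 (0.70) and Foxc1 (1.00). With nothing added, 10 were past it upward and 1 downward, and the median was 0.26. Among the 15 members with a mean of at least 1 FPKM, 1 was higher (Thbs1). Over the 21 rows marked as tested, 5 were higher and the median was 0.20. At a fold of 2, with 1 FPKM added, 0 members were higher. An overlap of 0.8, intact rows only, centring on the median of coding genes with a mean of at least 1 FPKM (-0.03), and the sum of all rows of a gene (chosen after seeing the data) each gave 5 higher and 0 lower. No called gene turned its direction under these settings; centring moved Col5a1 to 0.01, against -0.01 without it, and Fbn1 and Eln to 0.01, against -0.02 without it.

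No paired analysis was possible because the table holds 1 pooled value per group, and leaving out a library was not run for the same reason. The spread between libraries and the effect of each shRNA are not known. The calls of Col1a1, Col3a1, Bgn and Acta2 rest on values under 0.5 FPKM in non-silencing cultures, and that of Col3a1 is close to the threshold.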

Other observations

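Only 8 protein-coding genes with a mean between 0.1 and 1 FPKM were past 1.5-fold upward with 1 FPKM added, among 1942 in that range, and 4 of them were the matrix and contractile genes Acta2, Bgn, Col1a1 and Col3a1. The scarcest of the 1942 could not pass this call whatever their ratio, and the members were chosen with earlier results of these data known. Of the called genes that are not members, 3 are given here and were named after their values were seen. Mgp, which encodes matrix Gla protein, an inhibitor of calcification made by vascular and fibroblast-like cells, was at 1.58 FPKM in the knockdown and 0.236 FPKM in non-silencing cultures. Defb38, a beta-defensin gene, and Sprr2e, a small proline-rich protein gene of epithelia, were at 0.981 and 0.503 FPKM in the knockdown and listed at 0 in non-silencing cultures.

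The span that holds Tagln, the smooth muscle gene transgelin, also holds Bace1, Pcsk7 and Rnf214, and 1 of its 5 rows was at 1.5 FPKM in the knockdown and 0.688 FPKM in non-silencing cultures. The other rows held 25.4, 11, 11.7 and 28.3 FPKM in the knockdown. In the same order they held 25.3, 10.4, 13 and 28.5 FPKM in non-silencing cultures. Which gene any of these rows belongs to could not be told from its position, so no direction for Tagln can be read from them.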
